A study of Rattus norvegicus with 12 samples.

Results

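The genes described here are the ligand Indian hedgehog (Ihh), its receptors and signal proteins Ptch1, Smo and Hhip, the transcription factors Gli1, Gli2 and Gli3, the receptor Pth1r, and Col10a1, the collagen of hypertrophic cartilage. They are 9 of the 22601 genes of the deposited expression table and were taken by their symbols, which serve there as the gene identifiers. RNA-Seq was done on tissue from a bone defect in the distal femur of Sprague Dawley rats, 8 weeks old at surgery, where a 3 mm drill had penetrated the cortex. The groups were the hydrogel group (a 3D printed GelMA scaffold), the PCL group (polycaprolactone), the β-TCP group (β-tricalcium phosphate) and the control group, which had the same defect and no scaffold. Each group held 3 libraries, all harvested 2 weeks after surgery. In the scaffold groups the sample was the scaffold with the tissue in it, and in the control group it was the newly formed tissue. The sources do not say whether a library came from 1 rat or several, so the p-values cover the variation among libraries and not necessarily among rats.

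In endochondral bone formation, which also builds the soft callus of a healing bone, chondrocytes stop dividing, enlarge and make collagen X. Prehypertrophic chondrocytes secrete Indian hedgehog. Hedgehog binds Patched, which frees Smoothened, and the Gli factors then switch target genes on or off. In the growth plate Indian hedgehog also raises PTHrP, which acts on Pth1r to delay hypertrophy, and both signals reach perichondrial cells and osteoblasts as well.

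Depth was even, with 14325541 to 16574125 gene fragments per library, as recovered from the FPKM values (fragments per kilobase of transcript, scaled to the size of the library). Cartilage RNA was found in each library. Col2a1, the main collagen of cartilage, stood at 32.6 to 448.0 FPKM in hydrogel, 26.3 to 166.2 in PCL, 46.5 to 525.7 in β-TCP and 1298 to 9071 in control libraries. Control replicate 3 stood apart. It was the highest of the 12 libraries for all 9 genes described here, and for 1825 of the 12633 genes that passed the filter on low values (14.4%). Within the β-TCP group, replicates 2 and 3 were far closer to each other than any other pair of libraries of 1 group, and replicate 1 differed from both. Hemoglobin genes took 10.0 to 19.0% of the FPKM in hydrogel, 10.7 to 25.8% in PCL, 3.49 to 7.41% in β-TCP and 1.03 to 14.6% in control libraries. Control replicate 3 was the library at 1.03%, and its markers of other cells were low too. Neutrophil markers summed to 38.7 FPKM in it, beside 2254 and 2995 in the other control libraries, B cell markers to 13.6 beside 216 and 440, and erythroid markers to 2017 beside 18995 and 33673. The part of these cells in its high values was not tested.

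Ihh, the ligand, was lower in the scaffold libraries than in every control library. It stood at 0.822, 0.531 and 1.17 FPKM in the hydrogel libraries, 0.579, 0.786 and 0.133 in the PCL libraries and 4.53, 1.08 and 0.399 in the β-TCP libraries, against 6.84, 15.3 and 45.2 in the control libraries. The 9 scaffold values did not overlap the 3 control values, and the nearest pair, β-TCP replicate 1 and control replicate 1, lay 1.51-fold apart. Of the 12633 genes, 192 had all scaffold values below all control values. The Ihh values rest on 5 to 175 fragments in the scaffold libraries and on 237 to 1676 in the control libraries. On the log2(FPKM + 1) scale, where the folds of low genes come out smaller than they are, Ihh differed from control by -3.31 (SE 0.61) in the hydrogel group, by -3.62 (SE 0.61) in the PCL group and by -2.84 (SE 0.61) in the β-TCP group. The adjusted p of the limma fit over all 12633 genes was 0.287 for hydrogel, 0.0452 for PCL and 0.0307 for β-TCP. In bulk tissue, fewer cells of a type and less RNA per cell cannot be told apart.

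**Figure D1:**
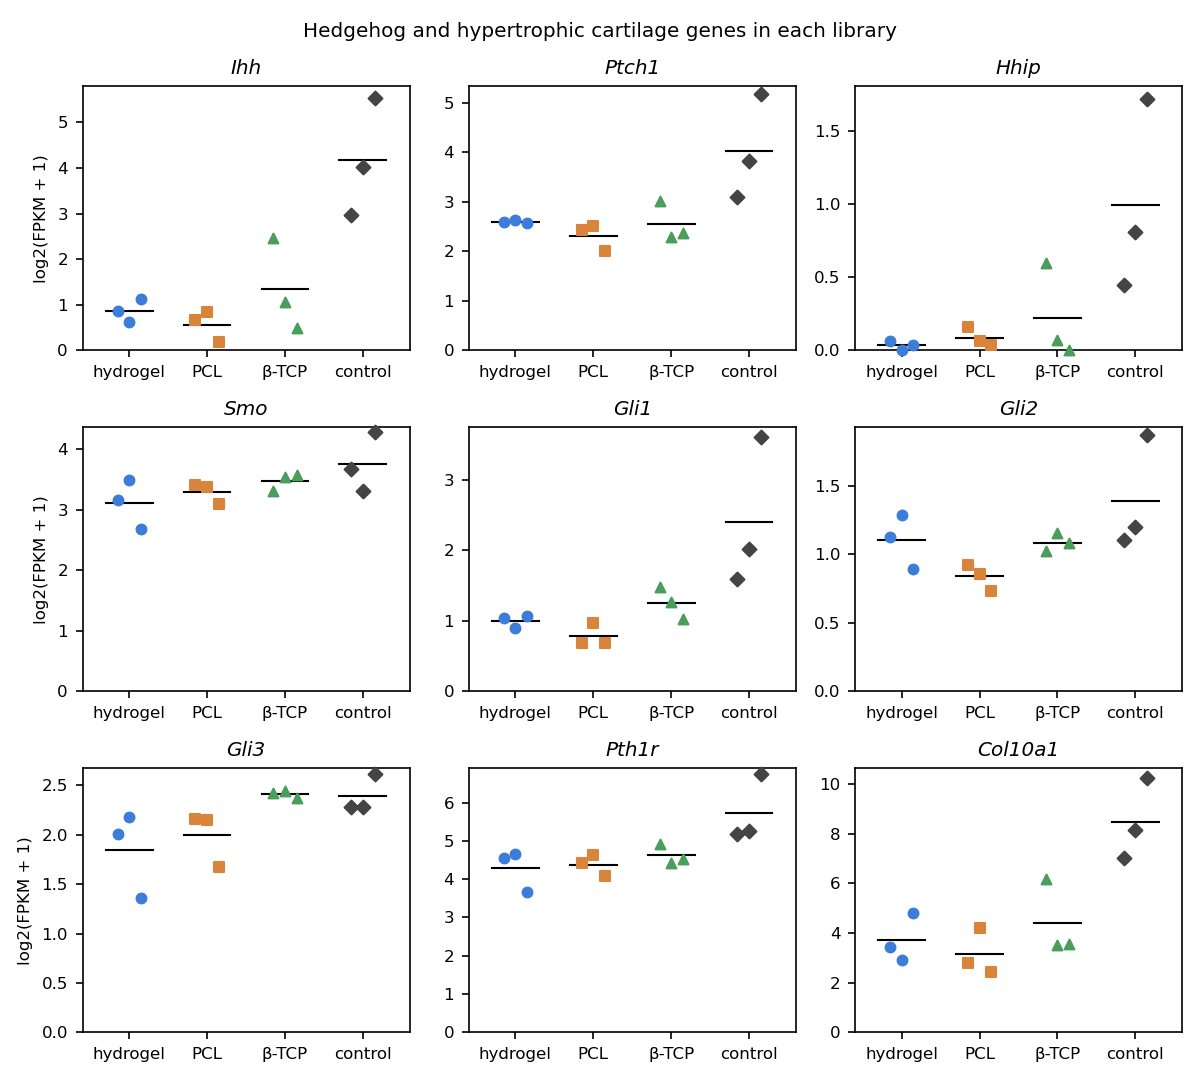
Level of each of the 9 genes in the 12 libraries, as log2(FPKM + 1), with 1 point a library (replicates 1 to 3 from left to right) and a black line at the mean of each group. All scaffold points lie below all control points for Ihh, Ptch1, Gli1, Pth1r and Col10a1, as for 192 of the 12633 tested genes. Control replicate 3 is the highest point in each panel.

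Ptch1, the hedgehog receptor and itself a standard target of the pathway, was also below control in all scaffold libraries. Its promoter is shown because a Gli binding sequence lies in it. The 300 bases run from 250 before to 50 after the start annotated by RefSeq (build GRCr8, chr17:1555321-1555620, plus strand). The capitals mark the consensus GACCACCCA, read here on the opposite strand as TGGGTGGTC and beginning 172 bases before the start.
Ptch1: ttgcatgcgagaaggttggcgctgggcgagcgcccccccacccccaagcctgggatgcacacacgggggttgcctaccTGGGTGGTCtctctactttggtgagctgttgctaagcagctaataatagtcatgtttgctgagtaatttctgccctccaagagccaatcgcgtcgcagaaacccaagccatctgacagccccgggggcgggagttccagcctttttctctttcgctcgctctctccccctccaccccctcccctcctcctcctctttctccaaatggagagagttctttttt
The consensus was searched on both strands and occurs in 129 of 33469 rat promoters of this length (0.385%), and among the 7 genes described here that matched the RefSeq promoter table it was found in that of Ptch1. The match is one of letters and not a measured site.

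Ptch1 stood at 5.01, 5.19 and 4.91 FPKM in the hydrogel libraries, 4.39, 4.73 and 3.02 in the PCL libraries and 7.06, 3.92 and 4.17 in the β-TCP libraries, against 7.54, 13.3 and 35.3 in the control libraries. The gap was narrow, since the lowest control library was 1.07 times β-TCP replicate 1, and the 3 hydrogel libraries were nearly equal. The log2 fold change was -1.44 (SE 0.42) in hydrogel, -1.72 (SE 0.42) in PCL and -1.48 (SE 0.42) in β-TCP, with adjusted p of 0.312, 0.116 and 0.0758 in limma, so none passed 0.05.

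Smo, the membrane protein that Patched holds in check, varied least between scaffold and control among the receptors. It ranged over 5.39 to 10.2 FPKM in hydrogel, 7.51 to 9.62 in PCL and 8.92 to 10.9 in β-TCP libraries, against 8.90 to 18.4 in control libraries. Scaffold and control values overlapped. Its log2 fold change was -0.65 (95% interval -1.21 to -0.09) in hydrogel, -0.46 (-1.02 to 0.10) in PCL and -0.28 (-0.84 to 0.28) in β-TCP.

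Hhip, a decoy receptor that binds hedgehog at the cell surface and is another target of the pathway, was the lowest of the 9 genes. It stood at 0.0474, 0 and 0.0262 FPKM in the hydrogel libraries, 0.118, 0.0453 and 0.0237 in the PCL libraries and 0.509, 0.0485 and 0 in the β-TCP libraries, against 0.361, 0.751 and 2.29 in the control libraries. In hydrogel replicate 2 and β-TCP replicate 3 no fragment was recovered, which allows up to 0.0749 and 0.0714 FPKM at 3 fragments, and these limits cover counting error only. The β-TCP group overlapped control through its replicate 1, while the hydrogel and PCL groups did not. Hhip did not pass the filter of 1 FPKM in 3 libraries and was not in the fit. In two-sided exact permutation tests on log2(FPKM + 1), the difference from control was -0.96 in hydrogel (p = 0.1), -0.90 in PCL (p = 0.1) and -0.77 in β-TCP (p = 0.2), with 3 libraries against 3, where the smallest possible p is 0.1. Over all 9 scaffold libraries against 3 the difference was -0.88 (exact permutation p = 0.0182, smallest possible 0.00909).

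The Gli factors differed among themselves. Gli1, an activator that hedgehog signaling itself induces, stood at 1.05, 0.856 and 1.10 FPKM in the hydrogel libraries, 0.612, 0.964 and 0.602 in the PCL libraries and 1.79, 1.40 and 1.04 in the β-TCP libraries, against 2.01, 3.04 and 11.1 in the control libraries. All scaffold values lay below all control values, by 1.12-fold at the nearest pair. Its log2 fold change was -1.40 (SE 0.40) in hydrogel, -1.62 (SE 0.40) in PCL and -1.14 (SE 0.40) in β-TCP, with limma adjusted p of 0.312, 0.117 and 0.145.

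Gli2, which acts mainly as an activator, ranged over 0.856 to 1.43 FPKM in hydrogel, 0.665 to 0.899 in PCL and 1.03 to 1.22 in β-TCP libraries, against 1.15 to 2.66 in control libraries. Its PCL values lay below all control values, while the other scaffold groups overlapped control. Gli3, known chiefly as the repressor of the family, ranged over 1.56 to 3.54 FPKM in hydrogel, 2.18 to 3.47 in PCL and 4.18 to 4.44 in β-TCP libraries, against 3.85 to 5.12 in control libraries. Its log2 fold change was -0.54 (SE 0.21) in hydrogel, -0.40 (SE 0.21) in PCL and 0.02 (SE 0.21) in β-TCP, and the last value turned to -0.04 with median-of-ratios scaling. The ratio of Gli1 to Gli3 FPKM was 0.242 to 0.702 in hydrogel, 0.177 to 0.280 in PCL and 0.249 to 0.411 in β-TCP libraries, against 0.523 to 2.17 in control libraries. Hydrogel replicate 3 was the scaffold library whose ratio reached into the control range.

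Pth1r, the receptor of PTHrP and parathyroid hormone, was below control in every scaffold library. It stood at 22.4, 24.4 and 11.7 FPKM in the hydrogel libraries, 20.4, 23.9 and 15.9 in the PCL libraries and 29.5, 20.3 and 21.9 in the β-TCP libraries, against 35.3, 37.5 and 106 in the control libraries. Control replicates 1 and 2 were alike and control replicate 3 was 2.84 times the next highest library. The log2 fold change was -1.44 (SE 0.40) in hydrogel, -1.36 (SE 0.40) in PCL and -1.11 (SE 0.40) in β-TCP, with limma adjusted p of 0.312, 0.165 and 0.158.

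Col10a1, the gene of collagen X, had the largest fold changes of the 8 tested genes. Its promoter is shown for the TATA box, in capitals, that begins 31 bases before the start (RefSeq, build GRCr8, chr20:39737286-39737585, plus strand).
Col10a1: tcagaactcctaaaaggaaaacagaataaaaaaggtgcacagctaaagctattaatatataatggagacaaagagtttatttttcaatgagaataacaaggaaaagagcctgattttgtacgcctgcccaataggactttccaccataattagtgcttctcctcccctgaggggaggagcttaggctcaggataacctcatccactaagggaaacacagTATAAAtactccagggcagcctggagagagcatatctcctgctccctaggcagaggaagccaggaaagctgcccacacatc
The letters TATAAA, searched on both strands, occur in 14.2% of the 33469 promoters and, among the 7 matched genes, in that of Col10a1. The Gli consensus was not among these letters, and neither motif overlapped the other in these promoters.

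Col10a1 stood at 9.87, 6.62 and 27.1 FPKM in the hydrogel libraries, 5.85, 17.5 and 4.44 in the PCL libraries and 71.1, 10.6 and 10.6 in the β-TCP libraries, against 130, 284 and 1219 in the control libraries. The 9 scaffold libraries lay below the 3 control libraries, with 1.83-fold between β-TCP replicate 1 and control replicate 1. The spread inside the control group was itself wide, at 544.5 ± 589.5 FPKM (SD, n = 3). The log2 fold change was -4.75 (SE 0.93) in hydrogel, -5.34 (SE 0.93) in PCL and -4.06 (SE 0.93) in β-TCP, and the limma adjusted p was 0.287, 0.054 and 0.0381.

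**Figure D2:**
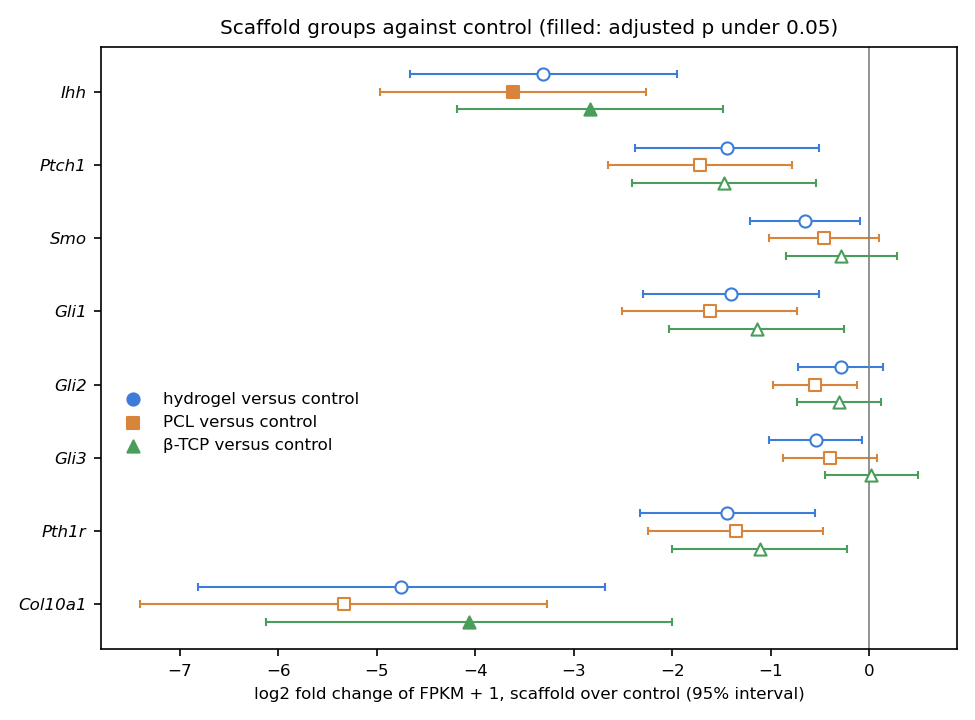
Log2 fold change of FPKM + 1 of the 8 tested genes in hydrogel, PCL and β-TCP over control, with 95% intervals from limma. Filled symbols have an adjusted p under 0.05: Ihh in PCL and β-TCP, and Col10a1 in β-TCP. Ihh and Col10a1 lie farthest from 0.

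Counted over the tested genes described here, an adjusted p under 0.05 was reached by 0 of 8 in hydrogel against control, where 0.00792% of all genes reached it. The count was 1 of 8 in PCL (Ihh), beside 0.277% of all genes, and 2 of 8 in β-TCP (Ihh and Col10a1), beside 4.78%. These shares count both directions, while the called genes were all lower. Downward only, the shares were 0.0317% in PCL and 0.562% in β-TCP. At an unadjusted p under 0.05 the limma counts were 7 in hydrogel, 6 in PCL and 5 in β-TCP, and limma-voom on the recovered fragments gave these same counts, with 0 at an adjusted p under 0.05 in each. In hydrogel Ihh ranked 10 and Col10a1 16 of the 12633 genes by p, while their adjusted p was 0.287. The threshold used in the study, p under 0.05 and a fold change above 2 or below 0.5, was passed downward by Ihh, Ptch1, Gli1, Pth1r and Col10a1 in each of the 3 comparisons. That is 5 of 8 genes, beside 1.48% of all genes in hydrogel, 1.27% in PCL and 1.03% in β-TCP. Only the cut-offs are the study's. The p and the fold change of FPKM + 1 are from the limma fit here, so genes past this threshold are not the study's own calls. The 3 comparisons share the control libraries and are not independent of each other.

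For the mean of the 3 scaffold groups over control, the same 5 genes passed the study's threshold downward (1.04% of all genes did), and 0 of 8 had an adjusted p under 0.05 (0.0396% of all genes), with 7 of 8 at an unadjusted p under 0.05 in limma and in limma-voom. Ihh was at -3.25 (SE 0.50, adjusted p 0.0521) and Col10a1 at -4.72 (SE 0.76, adjusted p 0.0529). Values of all 3 scaffold libraries lay below those of all control libraries for 6 of the 8 genes in hydrogel, beside 5.98% of all genes, for 7 of 8 in PCL, beside 7.84%, and for 5 of 8 in β-TCP, beside 4.97%.

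Several of these calls turned on single libraries. Without control replicate 3, the genes past the study's threshold were 2 in hydrogel (Ihh and Col10a1), 4 in PCL (Pth1r dropped out) and 2 in β-TCP (Ihh and Col10a1). Most genes that dropped out still had an unadjusted limma p under 0.05, from 0.00125 (Gli1 in hydrogel) to 0.0144 (Pth1r in PCL). Their fold change no longer passed the threshold. The exception was Pth1r in β-TCP, at an unadjusted p of 0.0612. In β-TCP the limma adjusted p stayed under 0.05 for Ihh (0.0363) and Col10a1 (0.0467) without control replicate 3. The log2 fold change without that library was -0.87 for Ptch1 and -3.87 for Col10a1 in hydrogel, and -0.90 for Ptch1 and -3.18 for Col10a1 in β-TCP. The adjusted p of Ihh in PCL stayed under 0.05 only without β-TCP replicate 1 or control replicate 1, and was lost without any of the other 10 libraries. The β-TCP calls of Ihh and Col10a1 were both lost without hydrogel replicate 1, PCL replicate 2, β-TCP replicate 2, β-TCP replicate 3 or control replicate 2, and that of Col10a1 also without PCL replicate 1. They were lost too with β-TCP replicates 2 and 3 averaged into 1 library. Without control replicate 1 more genes were called: Ihh, Ptch1 and Col10a1 in PCL, and Ihh, Ptch1, Gli1 and Col10a1 in β-TCP. The count called over all genes moved as well. With 1 library left out it ran from 2 to 52 in PCL, beside 35 with all 12 libraries. In β-TCP it ran from 8 to 1324, beside 604. Ihh, Ptch1, Smo, Pth1r and Col10a1 were below control in each of the 100 fits with an alternative setting or 1 library left out, over the 3 comparisons and their mean, and Gli1 in each of 96. Gli2 was below control in 95 of 96 such fits and Gli3 in 77 of 96.

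**Figure D3:**
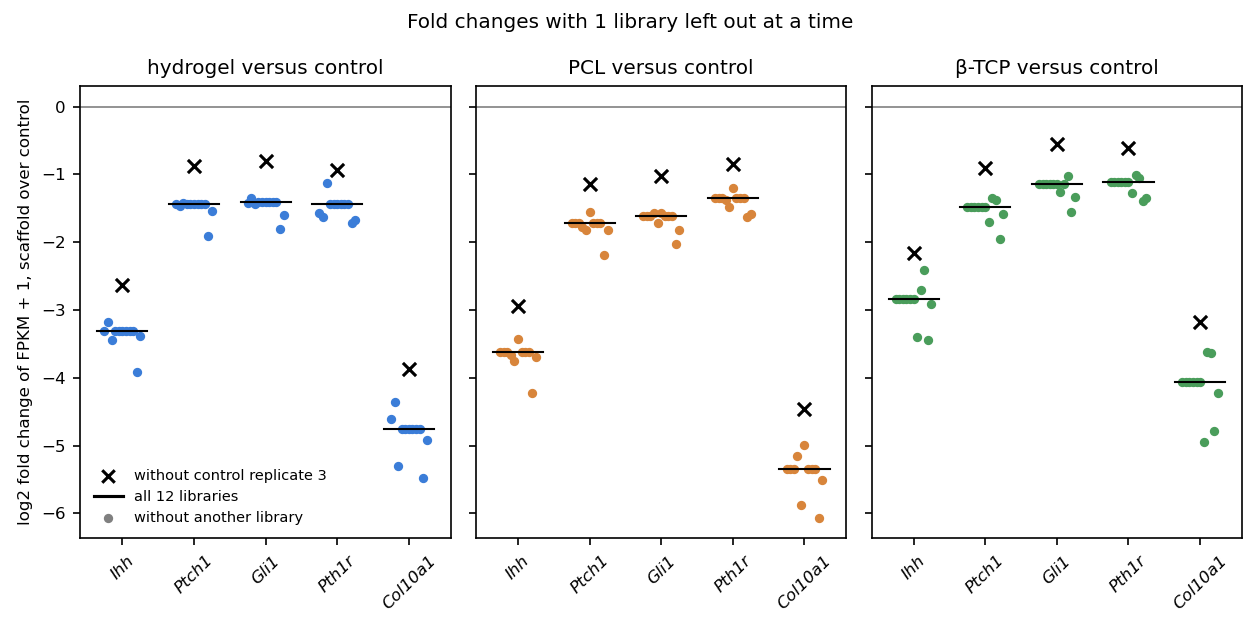
Log2 fold change of FPKM + 1 over control in hydrogel, PCL and β-TCP for the 5 genes past the study's threshold, with 1 library left out at a time. The black line is the value with all 12 libraries and the cross the value without control replicate 3, which lies nearer to 0 than any other value for each gene and group. Ihh in hydrogel spans -3.91 to -2.63.

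Between the scaffold groups no difference of these genes passed the adjusted threshold. In PCL over hydrogel the limma count was 0 of 8 (0.103% of all genes) with 0 at an unadjusted p under 0.05. In β-TCP over hydrogel it was 0 of 8 (6.13% of all genes) with 1 at an unadjusted p under 0.05, which was Gli3 at 0.56 (SE 0.21, adjusted p 0.104). In PCL over β-TCP it was 0 of 8 (0.657% of all genes) with 0 at an unadjusted p under 0.05, and limma-voom gave the same counts in all 3 pairs. The intervals were wide. For Ihh the log2 difference was -0.31 (95% interval -1.66 to 1.05) in PCL over hydrogel, 0.47 (-0.88 to 1.82) in β-TCP over hydrogel and -0.78 (-2.13 to 0.57) in PCL over β-TCP. For Col10a1 it was -0.59 (-2.65 to 1.48), 0.69 (-1.38 to 2.75) and -1.27 (-3.34 to 0.79) in the same order. Order by mean level was β-TCP, hydrogel, PCL below control for both genes, but β-TCP replicate 1 alone set the β-TCP mean: it was 6.11 times the mean of replicates 2 and 3 for Ihh and 6.70 times for Col10a1. Its values for Ptch1 (1.74 times) and Gli1 (1.47 times) were also the highest of the scaffold libraries.

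The proportion of Col10a1 to Ihh overlapped between scaffold and control tissue. The ratio of Col10a1 to Ihh FPKM was 12.01, 12.5 and 23.1 in the hydrogel libraries, 10.1, 22.2 and 33.5 in the PCL libraries and 15.7, 9.77 and 26.6 in the β-TCP libraries, against 19.0, 18.6 and 26.9 in the control libraries. The control values lay inside the scaffold range. Col10a1 per Col2a1 was 0.0605 to 0.208 in hydrogel, 0.0352 to 0.169 in PCL and 0.135 to 0.229 in β-TCP libraries, against 0.1001 to 0.207 in control libraries, and these ranges overlapped as well. Ihh per Col2a1 was 0.00261 to 0.0174 in hydrogel, 0.00349 to 0.00675 in PCL and 0.00859 to 0.0232 in β-TCP libraries. The control range, 0.00499 to 0.0111, overlapped each of them. Hydrogel replicates 1 and 2 and β-TCP replicate 2 lay above every control library, and hydrogel replicate 3 and PCL replicate 1 below.

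The summed level of 18 chondrocyte markers was also lower in all scaffold libraries than in all control libraries. It was 373 to 904 FPKM in hydrogel, 227 to 534 in PCL and 321 to 1153 in β-TCP libraries, against 2503 to 14651 in control libraries, and its highest library was control replicate 3. Of the 18 markers, 15 were tested, and 14 of 15 passed the study's threshold downward in each comparison with control. Of all genes, 1.48% did so in hydrogel, 1.27% in PCL and 1.03% in β-TCP. At an adjusted p under 0.05 limma gave 0 of 15 in hydrogel, 0 of 15 in PCL and 8 of 15, all lower, in β-TCP. Beside these stood 0.00792%, 0.277% and 4.78% of all genes, called in either direction. The median log2 fold changes of the markers were alike, at -3.54, -3.73 and -3.65. Matn1 was the marker of this list at 0, in PCL replicate 3, β-TCP replicate 1 and β-TCP replicate 2. Sox9, the master regulator of chondrocytes, averaged 1.40 ± 0.06 FPKM in hydrogel, 1.41 ± 0.36 in PCL and 1.11 ± 0.39 in β-TCP libraries, against 7.05 ± 6.05 in control libraries (SD, n = 3 each). Osteoblast and osteocyte markers, 12 genes of which some are also made by hypertrophic chondrocytes, summed to 4855 to 11799 FPKM in hydrogel, 7100 to 10532 in PCL and 9801 to 11462 in β-TCP libraries, against 11031 to 18384 in control libraries. The part of the amount of cartilage in the differences of the hedgehog genes was not tested.

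Set beside the chondrocyte total of the same library, the genes differed among themselves, given here as FPKM per 1000 FPKM of chondrocyte markers. Col10a1 was at 24.6 ± 6.5 in hydrogel, 22.6 ± 13.5 in PCL and 42.4 ± 16.6 in β-TCP, against 81.7 ± 32.8 in control (SD, n = 3 each). Ihh was at 1.63 ± 0.50 in hydrogel, 1.12 ± 0.55 in PCL and 2.83 ± 1.41 in β-TCP, against 3.91 ± 1.92 in control. For both, the hydrogel and PCL libraries lay below the control libraries per chondrocyte total, and the β-TCP libraries overlapped them. Per Col2a1, as given above, both genes overlapped control in each scaffold group, so the reading depends on the denominator. The markers in the total did not fall alike. In hydrogel, PCL and β-TCP over control, the log2 fold change of Col2a1 was -4.81, -4.96 and -4.58, and that of Sox9 -1.50, -1.50 and -1.70. The total was therefore not the same mixture of markers in scaffold and control libraries. Per chondrocyte total Ptch1 ran the other way, at 10.8 ± 4.7 in hydrogel, 10.5 ± 2.6 in PCL and 10.4 ± 3.7 in β-TCP, against 3.50 ± 1.57 in control, with no overlap between scaffold and control libraries. Pth1r was at 45.6 ± 28.4 in hydrogel, 53.0 ± 15.9 in PCL and 52.1 ± 23.1 in β-TCP, against 11.8 ± 4.0 in control, and only hydrogel replicate 3 reached into the control range. Gli1 was at 2.09 ± 0.81 in hydrogel, 1.95 ± 0.76 in PCL and 3.03 ± 1.38 in β-TCP, against 0.907 ± 0.268 in control, and hydrogel replicate 3 (1.21) and PCL replicate 1 (1.15) lay below control replicate 2 (1.22). Smo was at 17.9 ± 10.7 in hydrogel, 23.7 ± 8.1 in PCL and 24.7 ± 14.7 in β-TCP, against 3.06 ± 1.61 in control. Gli2 was at 2.62 ± 1.48 in hydrogel, 2.12 ± 0.70 in PCL and 2.70 ± 1.57 in β-TCP, against 0.375 ± 0.173 in control, and Gli3 at 6.35 ± 4.05 in hydrogel, 7.82 ± 1.61 in PCL and 10.1 ± 5.5 in β-TCP, against 1.11 ± 0.66 in control. For these 3 genes no scaffold library reached into the control range. Any gene whose FPKM fell short of control by less than the chondrocyte total did has a higher ratio in the scaffold groups. The totals reached at most 1153 FPKM in scaffold libraries and at least 2503 in control libraries. A gene at equal FPKM in all libraries would thus separate upward without overlap by construction. The share of all genes that separate this way was not counted, so the missing overlap is no result about these genes. Hydrogel replicate 3 shows the split inside 1 group: its Col10a1 and chondrocyte total were the highest of the hydrogel libraries, and its Smo, Gli3, Pth1r and osteoblast marker total the lowest.

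**Figure D4:**
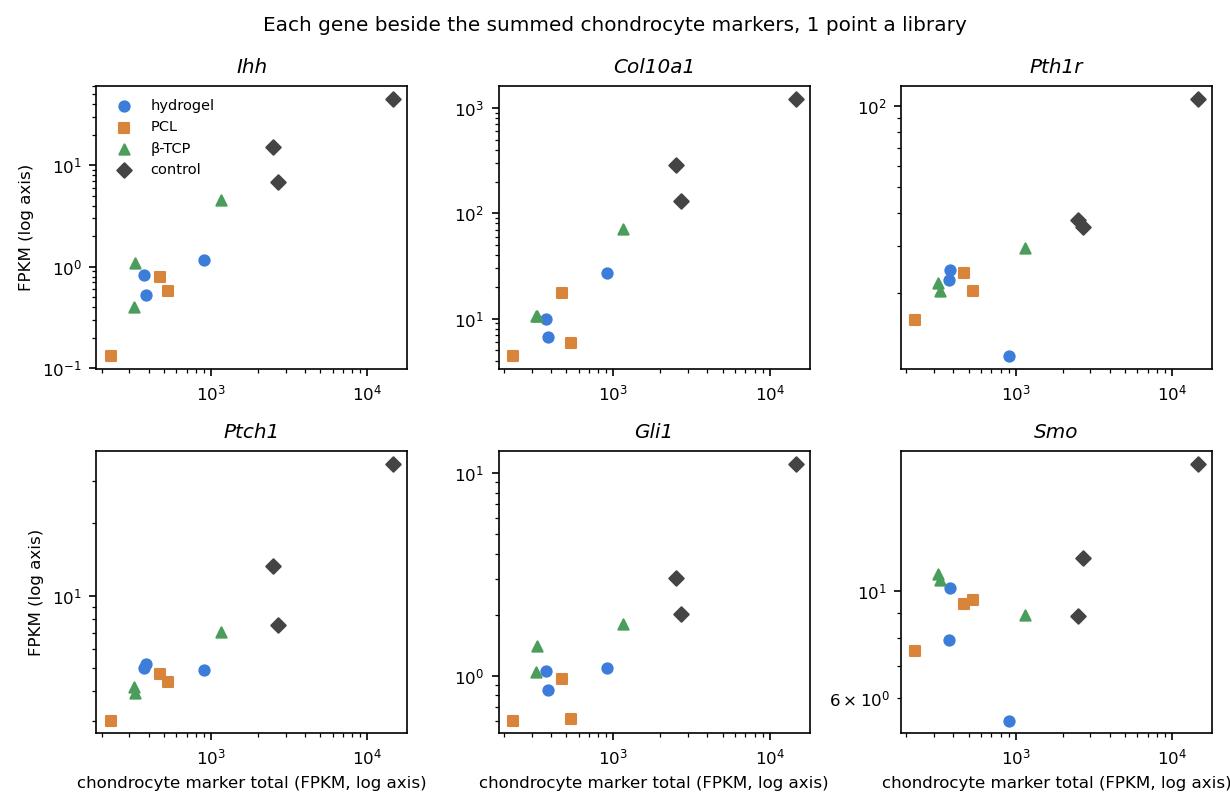
FPKM of 6 genes against the summed FPKM of 18 chondrocyte markers, both on log axes, with 1 point a library. Ihh and Col10a1 span the widest range along the chondrocyte total, with control replicate 3 at 14651 FPKM of markers at the far right, and Smo the narrowest.

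The other genes of hedgehog signaling were given by lists. Among 7 genes of ligands and ligand release, Shh was listed at 0 in all 12 libraries and Dhh ranged over 0.146 to 0.696 FPKM. Of the 4 tested, 0 were called at an adjusted p under 0.05 in any of the 7 comparisons (limma). Scube1, a secreted protein that helps release hedgehog, passed the study's threshold in each comparison with control. It averaged 3.46 ± 0.73 FPKM in hydrogel, 3.18 ± 0.83 in PCL and 3.14 ± 0.22 in β-TCP, against 10.9 ± 8.7 in control (SD, n = 3 each), with log2 fold changes of -1.20, -1.30 and -1.29 (SE 0.38 each). Scube3 passed it in hydrogel (-1.13, SE 0.30) and PCL (-1.22, SE 0.30). Without control replicate 3 neither gene passed it, with Scube1 at -0.64 in hydrogel, -0.74 in PCL and -0.74 in β-TCP, and Scube3 at -0.71 in hydrogel and -0.80 in PCL. The unadjusted limma p of these values stayed under 0.05, from 0.0014 to 0.0070. Scube2 was at -0.11, 0.05 and 0.26 in hydrogel, PCL and β-TCP (SE 0.17 each).

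Of the other receptors and coreceptors, 3 of 7 were tested, and Gas1, a coreceptor, was at 0.02, 0.04 and 0.51 (SE 0.27 each) and the coreceptor Boc at -0.48, -0.57 and -0.19 (SE 0.24 each). Of 13 genes of transduction and the cilium, where hedgehog signals are relayed, 12 were tested, with median log2 fold changes of -0.08 in hydrogel, -0.26 in PCL and -0.09 in β-TCP and none past either threshold against control. The kinase Csnk1a1 and the ubiquitin ligase adaptor Spop had fold changes between -0.05 and 0.14. The other hedgehog targets with enough signal were 3 of 8, among them the cyclins Ccnd1 (-0.53, 0.11 and 0.45, SE 0.31 each) and Ccnd2 (0.43, 0.51 and -0.05, SE 0.24 each). In the PTHrP loop 6 of 10 genes were tested and none passed a threshold against control, with the G protein subunits Gnas (-0.02, 0.02 and 0.11, SE 0.12 each) and Gna11 (-0.20, -0.04 and -0.07, SE 0.15 each) near 0. Pthlh, which encodes PTHrP, had 0 to 9 fragments per library and was too low to compare.

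Of 14 other genes used by hypertrophic chondrocytes, many of them shared with osteoblasts, 12 were tested. The sign was lower in 12 of 12 in hydrogel and in PCL and in 10 of 12 in β-TCP, with median log2 fold changes of -0.78, -0.71 and -0.29, beside 0.143, 0.044 and 0.029 over all genes. Of all genes tested, 32.7% were lower in hydrogel, 44.6% in PCL and 45.8% in β-TCP. Past the study's threshold were Vegfa (-1.29, SE 0.33), Alpl (-1.23, SE 0.41) and Panx3 (-1.21, SE 0.49) in hydrogel. In PCL they were Vegfa (-1.28, SE 0.33), Fgfr3 (-1.17, SE 0.33) and Alpl (-1.08, SE 0.41), and in β-TCP Ibsp (-1.10, SE 0.48). Ibsp was close to this in hydrogel (-1.03) and PCL (-1.07), and Fgfr3 stood at -0.99 in hydrogel and -0.97 in β-TCP. Those values were not past the study's threshold. Without control replicate 3 none of these passed it: Vegfa was at -0.85, Alpl at -0.68 and Panx3 at -0.69 in hydrogel, Vegfa at -0.84, Fgfr3 at -0.83 and Alpl at -0.53 in PCL, and Ibsp at -0.56 in β-TCP. Of these, Vegfa and Alpl in hydrogel and Vegfa and Fgfr3 in PCL kept an unadjusted limma p under 0.05. Alpl and Panx3 in hydrogel also dropped out without hydrogel replicate 3, Alpl in PCL without PCL replicate 1 or 3, and Ibsp in β-TCP without hydrogel replicate 1, any PCL library or β-TCP replicate 2 or 3. These genes, and Scube3, were named after their values were seen. Spp1, the gene of osteopontin, was the member of this list called in any of the 7 comparisons. That was 1 of 12 tested genes, in β-TCP over hydrogel, where 6.13% of all genes were called and 5.17% called higher. The count is near that share. Spp1 stood at 8896, 7613 and 7658 FPKM in the β-TCP libraries, against 3631, 4178 and 1539 in the hydrogel libraries, with a log2 fold change of 1.49 (SE 0.38, limma adjusted p 0.0451). The groups did not overlap, and the call was lost on leaving out any of 9 libraries, all but hydrogel replicate 2, control replicate 2 and control replicate 3. Osteoclast markers moved the same way: 6 of 7 tested were called higher in β-TCP over hydrogel (6.13% of all genes were called in either direction), and the 8 markers summed to 9674 to 9921 FPKM in β-TCP libraries, against 2358 to 5311 in hydrogel libraries. Their part in the Spp1 difference was not tested.

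**Figure D5:**
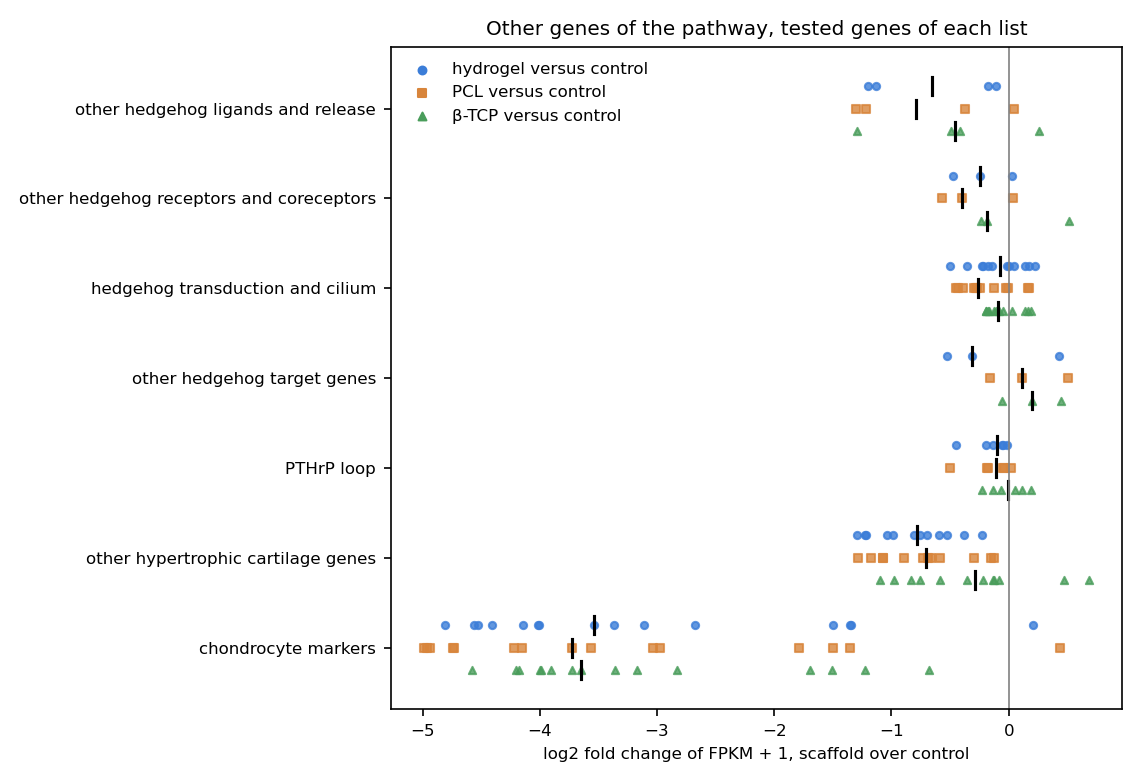
Log2 fold change of FPKM + 1 over control of each tested gene of 6 lists around the pathway and of the chondrocyte markers, in hydrogel, PCL and β-TCP, with a black bar at the median of each list. The cilium, target and PTHrP lists lie around 0, the hypertrophic list has medians of -0.78, -0.71 and -0.29, and the chondrocyte markers of -3.54, -3.73 and -3.65.

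The tested genes whose pattern was most like that of Ihh, by the root mean square difference of centred log2(FPKM + 1) over the 12 libraries, were Susd5 (0.354), Car12 (0.394), Anxa8 (0.421), RGD1311447 (0.432) and Arsi (0.452), where Ihh itself deviated by 1.59 from its own mean. Susd5 averaged 3.10 ± 1.69 FPKM in hydrogel, 2.48 ± 0.84 in PCL and 4.25 ± 3.35 in β-TCP, against 48.6 ± 53.9 in control (SD, n = 3 each). Car12, a membrane carbonic anhydrase, averaged 2.65 ± 0.60 in hydrogel, 1.09 ± 0.42 in PCL and 3.35 ± 1.80 in β-TCP, against 37.5 ± 43.8 in control. Those most like Col10a1 were Hapln1 (0.515), which links aggrecan to hyaluronan, the collagen IX genes Col9a3 (0.679) and Col9a2 (0.723), the annexin Anxa8 (0.763) and Col2a1 (0.792), where Col10a1 itself deviated by 2.35. RGD1311447 was matched by synonym to Snorc. It, Hapln1, Col9a3, Col9a2 and Col2a1 are among the 18 chondrocyte markers summed above. Ihh ranked 8 of the tested genes in likeness to Col10a1. Seen from Ihh, the ranks were 35 for Col10a1, 36 for Ptch1, 51 for Gli1 and 71 for Pth1r, while Gli2 (555), Smo (596) and Gli3 (924) were far down. The distance counts the size of a change as well as its shape, so a small fold change alone puts a gene far away.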

How the data were processed

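RNA-Seq libraries of 12 samples (4 groups of 3) were deposited by the authors as 1 table of FPKM per gene. Per the labels and methods, reads were trimmed with Trimmomatic, aligned to the rat genome with HISAT2 and quantified by Cufflinks (HTSeq, Bowtie, StringTie and Rnor_6.0 also stand in the submitters' notes, with no role). The sources name 2 different RNA and library kits. The table holds 3 further value columns that match no sample and were not used. FPKM scales each library to its own total, so a few abundant genes can shift all others. Whole fragments were recovered for 99.99% of the 18684 genes above 0 (tolerance 0.01).

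Here log2(FPKM + 1) was fitted with limma 3.58.1 (R 4.3.3) over all 12 libraries, for 12633 genes at 1 FPKM or more in at least 3 libraries, with a mean trend and Benjamini-Hochberg adjustment over all of them. Over all genes in hydrogel the median shift was 0.143 on the log2 scale, and fold changes there are to be read against it. Hhip, under the filter, had exact permutation tests (scipy 1.17.1). Alternatives were 13 settings and 12 fits with 1 library left out. The genes named were the 9 members, those of each pathway list called in any of 7 comparisons (otherwise the 2 most abundant), and the 5 nearest to Ihh and to Col10a1. Members and lists were chosen with earlier results of these data known. Gene symbols of the lists matched the table for 154 of 158 entries and by synonym for 4. Promoters are from RefSeq (GRCr8), a build other than that of the processing notes, so no other coordinates are given.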

Additional observations from a re-analysis of the deposited data

How the results depend on the processing

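The count of tested hedgehog and hypertrophic genes at an adjusted p under 0.05 depended on most choices. In PCL over control (1 gene) it was 0 with log2(FPKM + 0.1), with no filter on low values, with a filter of 5 FPKM, with median-of-ratios scaling, with quantile normalization, with only the groups compared in the fit, with limma-voom and with β-TCP replicates 2 and 3 averaged, and 2 with hemoglobin genes left out of the total. In β-TCP over control (2 genes) it was 1 with no filter, and 0 with only the groups compared, with limma-voom and with replicates 2 and 3 averaged. In the mean of the scaffold groups over control (0 genes) it was 2 with hemoglobin genes left out. Weights per library, whose estimate stopped before converging, gave 7 in hydrogel, 7 in PCL, 5 in β-TCP and 6 in the mean over control, 1 in PCL over hydrogel, 2 in β-TCP over hydrogel and 2 in PCL over β-TCP, and left 2 genes past the study's threshold in each comparison with control and in the mean. Of all genes, the settings called at most 4174 in hydrogel, 7296 in PCL, 8546 in β-TCP and 7349 in the mean over control. Between scaffolds they called at most 2476 in PCL over hydrogel, 7445 in β-TCP over hydrogel and 6859 in PCL over β-TCP. The filter of the report kept 12633 genes. With 1 library left out, the adjusted count ran from 0 to 3 in PCL, 0 to 4 in β-TCP and 0 to 2 in the mean, and the count past the study's threshold from 2 to 5 in hydrogel, 2 to 5 in β-TCP and 2 to 5 in the mean. The adjusted count over all genes then ran from 2 to 52 in PCL, 8 to 1324 in β-TCP and 1 to 122 in the mean. That past the study's threshold ran from 88 to 1181 in hydrogel, 370 to 799 in β-TCP and 133 to 581 in the mean. The cause of these shifts was not tested.

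Replicate numbers did not pair the samples: of 18 pairs with the same number 4 had correlated deviations above 0.1 (range -0.612 to 0.469), and 1 of 12 libraries correlated best with its own number. With the replicate block the adjusted count was 0 in PCL and 0 in β-TCP over control.

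The values whose direction turned were uncalled with the settings of the report, but with weights Vegfa and Scube3 in β-TCP over control passed an adjusted p of 0.05 in the turned direction. In that comparison the settings called up to 8546 of all genes. With weights the turned values were Gli2 in hydrogel over control (0.042), Panx3 in PCL (0.036), Scube3 (0.22), Vegfa (0.31) and Panx3 (0.23) in β-TCP over control, Col10a1 in PCL over hydrogel (0.58), and Ptch1 (0.087), Pth1r (0.081) and Col10a1 (0.22) in PCL over β-TCP. With median-of-ratios scaling they were Gli3 in β-TCP over control (-0.04) and, in β-TCP over hydrogel, Ptch1 (0.024) and Gli2 (0.019). With quantile normalization they were the same 3, at -0.014, 0.047 and 0.023. Leaving out hemoglobin genes turned Gli3 in β-TCP over control (-0.022) and Smo in PCL over β-TCP (0.015), and averaging β-TCP replicates 2 and 3 turned Ptch1 in β-TCP over hydrogel (0.079). With 1 library left out, Gli3 in β-TCP over control ran from -0.035 to 0.13, Vegfa from -0.46 to 0.23 and Panx3 from -0.41 to 0.44. In PCL over hydrogel, Smo ran from -0.025 to 0.38, Gli3 from -0.10 to 0.31 and Pth1r from -0.23 to 0.27. In β-TCP over hydrogel, Ihh ran from -0.094 to 0.90, Ptch1 from -0.26 to 0.10, Gli2 from -0.12 to 0.075 and Col10a1 from -0.19 to 1.23.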
